A study of Mus musculus with 36 samples.

Results

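Interferon-stimulated genes were examined on every array of a TGF-β1 time course in mouse multipotent progenitors (MPP) and common dendritic cell progenitors (CDP). A list of 37 such genes was matched by symbol to probe sets that carry 1 gene symbol, and 35 of the 37 were measured, among 19938 genes in all. Ifi47 and Igtp, both interferon-inducible GTPases, lay only on probe sets with several symbols and have no value here. Each of the 35 measured genes had 1 probe set.

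Both progenitors were grown from mouse bone marrow in a cytokine mix and sorted. MPP can give rise to several blood lineages, and CDP are committed to dendritic cells. The cells were left untreated (0 h) or received 10 ng/ml of recombinant human TGF-β1 for 2, 4, 8, 12 or 24 h, with 3 arrays, described by the study as biological replicates, in each of the 12 groups. One protocol text among the labels gives 6 h where the sample titles give 8 h, and the titles are followed here. No strain or age of the mice is given in the sources used here. Untreated cells kept for as long as the treated ones were not analysed here, and TGF-β1 and time in culture cannot be told apart. Levels are RMA log2 intensities, on which a difference of 1 is a factor of 2 in intensity. The median of all genes was 7.91, and levels are compared between arrays for 1 gene, never between genes. In untreated cells, the MPP markers Kit, Cd34 and Gata2 were called lower in CDP and the CDP markers Flt3 and Cx3cr1 higher, at an adjusted p under 0.01 and a change of at least 1 log2 unit. Of the 8 CDP markers only these 2 were called, and 7 were higher in CDP at an adjusted p under 0.05 with no size required. Kit lay between 10.92 and 11.52 on MPP arrays and between 8.31 and 11.78 on CDP arrays. In CDP it was called higher at 24 h, by 2.79. Flt3 lay between 12.06 and 13.21 on CDP arrays and between 9.69 and 11.80 on MPP arrays. In MPP it was called higher at 8, 12 and 24 h. Of the other MPP markers, Mecom was low on the MPP arrays (6.26 to 6.60), Cd48 was higher in CDP (median 11.54) than in MPP (10.97), and Ly6a was not measured here. Meis1 had close medians, 9.76 in MPP and 9.55 in CDP. In a bulk sample, more cells that express a gene and more RNA of it in each cell cannot be told apart.

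Type I interferons bind a receptor of IFNAR1 and IFNAR2, and the kinases JAK1 and TYK2 then phosphorylate STAT2. STAT2 acts with IRF9 in a complex that enters the nucleus and binds the interferon-stimulated response element, a DNA motif that holds a pair of GAAA copies. The genes so induced encode sensors of viral RNA, enzymes and binding proteins that block viral replication, antigen-handling and GTPase families, and the signalling proteins themselves, among them STAT2, IRF9 and IRF7. Usp18, in turn, dampens the receptor. Dendritic cells and their progenitors are well known for strong interferon responses.

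The upstream sequences of these genes were searched for the GAAA pair of that element. RefSeq windows of the GRCm38.p6 build, from 250 bases before to 50 bases after the transcription start, were found for 28 of the 37 listed genes. A pair of GAAA copies separated by 2 bases was searched for on either strand (on the opposite strand it reads as a pair of TTTC copies). It was present in 16 of these 28 genes (57.14%), against 1079 of all 27025 genes with a window (3.99%). A gene with several windows was counted once, if any of them held a match. The matches are descriptions of letters and were not tested as binding sites. The 250 bases before the start are shown for 5 members whose array values are described further on, with the matching bases in capitals and each sequence written along the strand of its gene. Ifit1 and Ifit3 (antiviral proteins that bind viral RNA or partner proteins) hold 2 separate matches each. Cxcl10 (a chemokine that attracts T cells) and Stat2 hold 1 each, and Gbp3 (a guanylate-binding GTPase) holds 2 that overlap. The windows cover chr19:34640639-34640888 (Ifit1, plus strand), chr19:34583279-34583528 (Ifit3, plus strand), chr5:92348890-92349139 (Cxcl10, minus strand), chr10:128270248-128270497 (Stat2, plus strand) and chr3:142559794-142560043 (Gbp3, plus strand).
Ifit1: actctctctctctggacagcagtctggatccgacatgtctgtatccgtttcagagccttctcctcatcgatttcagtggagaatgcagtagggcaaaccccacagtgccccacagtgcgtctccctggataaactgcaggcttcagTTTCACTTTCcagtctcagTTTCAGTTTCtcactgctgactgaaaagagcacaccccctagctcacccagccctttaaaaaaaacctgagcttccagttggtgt
Ifit3: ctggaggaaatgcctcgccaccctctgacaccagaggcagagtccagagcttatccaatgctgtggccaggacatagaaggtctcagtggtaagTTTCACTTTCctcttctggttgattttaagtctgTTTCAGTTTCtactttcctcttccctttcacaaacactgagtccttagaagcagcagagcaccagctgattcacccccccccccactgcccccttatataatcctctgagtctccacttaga
Cxcl10: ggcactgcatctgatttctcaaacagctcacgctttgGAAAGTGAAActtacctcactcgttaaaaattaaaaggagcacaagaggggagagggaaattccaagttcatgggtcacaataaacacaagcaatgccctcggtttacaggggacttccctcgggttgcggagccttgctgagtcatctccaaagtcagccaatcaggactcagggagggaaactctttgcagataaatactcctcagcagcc
Stat2: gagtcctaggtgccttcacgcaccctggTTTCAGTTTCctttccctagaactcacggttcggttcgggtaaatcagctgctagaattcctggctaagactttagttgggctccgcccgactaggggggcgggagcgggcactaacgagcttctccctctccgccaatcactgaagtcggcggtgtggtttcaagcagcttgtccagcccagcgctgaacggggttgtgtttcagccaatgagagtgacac
Gbp3: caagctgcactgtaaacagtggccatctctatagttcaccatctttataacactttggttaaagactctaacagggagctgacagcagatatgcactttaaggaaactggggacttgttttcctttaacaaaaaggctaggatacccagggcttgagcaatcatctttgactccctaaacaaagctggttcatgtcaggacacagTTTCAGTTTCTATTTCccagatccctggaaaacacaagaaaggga
In Ifit1 the matches lay 104 to 95 and 85 to 76 bases before the start, and in Ifit3 they lay 156 to 147 and 122 to 113 bases before it. In Gbp3 they lay nearer, within 45 to 30 bases before the start, and in Cxcl10 and Stat2 they lay farther, from 213 and 222 bases before it. Gbp3 has another window, for a start farther along the gene (chr3:142560106-142560355), which held no match.

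The level of the 35 genes varied widely between arrays of the same group, mainly in CDP. The mean of the 35 genes on the 3 untreated CDP arrays was 8.99, 8.88 and 10.37 (replicates 1, 2 and 3). At 2 h it was 8.80, 8.79 and 12.00, and at 4 h it was 10.32, 8.79 and 9.92. At 8 h the values were 8.63, 8.62 and 9.68, at 12 h 8.61, 8.67 and 9.45, and at 24 h 9.67, 9.17 and 10.11. Replicate 3 was thus the highest CDP array at 5 of the 6 times, the exception being 4 h, where replicate 1 was highest. Replicate 2 of CDP stayed between 8.62 and 9.17 throughout. In MPP, all arrays but 1 lay between 8.46 and 8.94, and the untreated replicate 3 stood above them at 9.32, against 8.66 and 8.66 on the other untreated MPP arrays.

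**Figure D1:**
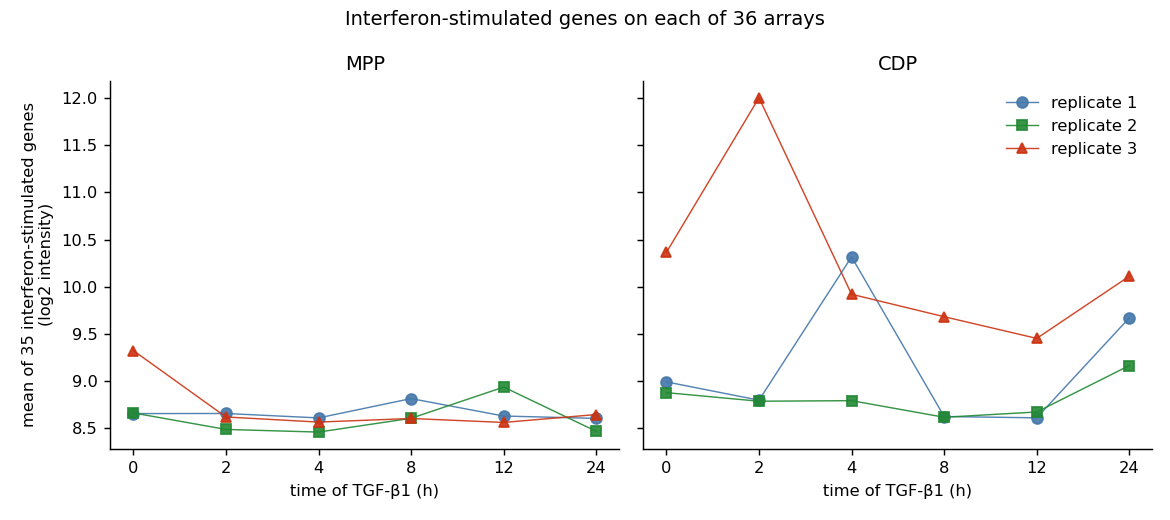
Mean log2 intensity of the 35 measured interferon-stimulated genes on each array, against the time of TGF-β1 (x axis, evenly spaced categories), for MPP (left) and CDP (right). Each point is 1 array and lines join arrays with the same replicate number. CDP 2 h replicate 3 stands highest at 12.00 and the MPP arrays other than untreated replicate 3 lie between 8.46 and 8.94.

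The spread between replicates was accordingly wider for these genes than for the median gene, most of all in CDP. In CDP, the median standard deviation (SD) of the 35 genes over the 3 arrays of a group ran from 0.386 at 12 h to 1.708 at 2 h, while the median over all genes ran from 0.064 to 0.082. In MPP it ran from 0.104 at 4 h to 0.272 at 0 h, against 0.064 to 0.078 over all genes. The share of all genes with an SD above the members' median SD ran from 0.236% at 0 h to 1.96% at 24 h in CDP. In MPP that share ran from 1.99% at 0 h to 31.1% at 4 h. The group mean of the 35 genes was 9.86 ± 1.85 (SD, n = 3) in CDP at 2 h and 8.79 (n = 2) without replicate 3. It was 8.88 ± 0.38 (SD, n = 3) in untreated MPP and 8.66 (n = 2) without replicate 3. Over all genes, the lowest correlation between arrays of a group was 0.9855 in CDP at 2 h and at least 0.9925 in the other groups. Such a correlation rests mostly on level differences between genes, so it says little about how close the replicates were.

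CDP 2 h replicate 3 carried the highest level of each of the 35 genes among all 18 CDP arrays. Its members exceeded the mean of the other 2 arrays of the group by 1.10 to 5.83 log2 units, with a median of 2.954. Of all genes, 285 exceeded both other arrays of the group by 1 unit or more on this array, and all 35 members were among them. The largest gap was at Ifit3, at 7.86, 7.95 and 13.73 on the 3 arrays. Ifit1 read 7.53, 7.71 and 13.14. Both genes were below their medians over the 18 CDP arrays on replicates 1 and 2, and replicate 3 alone was high. Cxcl10 read 8.55, 8.57 and 14.06, a gap of 5.50, and Rsad2 (viperin, an antiviral enzyme) had one of 5.13. The smallest gaps were at Irf9, at 10.34, 10.35 and 11.45, and at Dtx3l (a ubiquitin ligase that partners Parp9), at 11.18, 11.21 and 12.33. These 2 genes also had the narrowest ranges over the 18 CDP arrays, 1.10 and 1.15 log2 units.

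Untreated MPP replicate 3 showed a smaller and more selective elevation. Of the 35 members, 32 were above both other untreated MPP arrays, as were 37.5% of all genes. The median deviation of the 35 from the mean of those arrays was 0.452. By 1 unit or more, 7 exceeded both other arrays, of 25 genes in all that did. Cxcl10 was the largest, at 8.23, 8.09 and 10.58. Rtp4 (a chaperone of cell surface receptors) followed at 7.34, 7.13 and 8.99, and Ifit1 read 7.36, 7.12 and 8.99. These were the genes with wide ranges in CDP too. At the other end, Stat2 read 10.12, 10.34 and 10.19, Parp9 (an ADP-ribosyltransferase family member) 9.74, 9.82 and 9.71, and Herc6 (the mouse ligase that attaches ISG15) 9.15, 9.13 and 9.14, so these 3 genes did not separate replicate 3 from its group.

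Other CDP arrays showed the same genes at intermediate levels. On untreated CDP replicate 3, 33.9% of all genes lay above both other arrays. All 35 members did so, with a median deviation of 1.388 from the mean of those arrays. Of these, 22 lay 1 unit or more above both, of 64 genes in all. On replicate 3 the count of members 1 unit or more above the other arrays was 16 at 8 h (of 63 genes), 9 at 12 h (of 53 genes) and 3 at 24 h (of 25 genes). At 4 h the group split differently, with replicates 1 and 3 high and replicate 2 low. There, 17 members of replicate 2 lay 1 unit or more below both other arrays, of 57 genes in all. No group of 3 arrays allows a test of 1 array, so these deviations are descriptions.

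**Figure D2:**
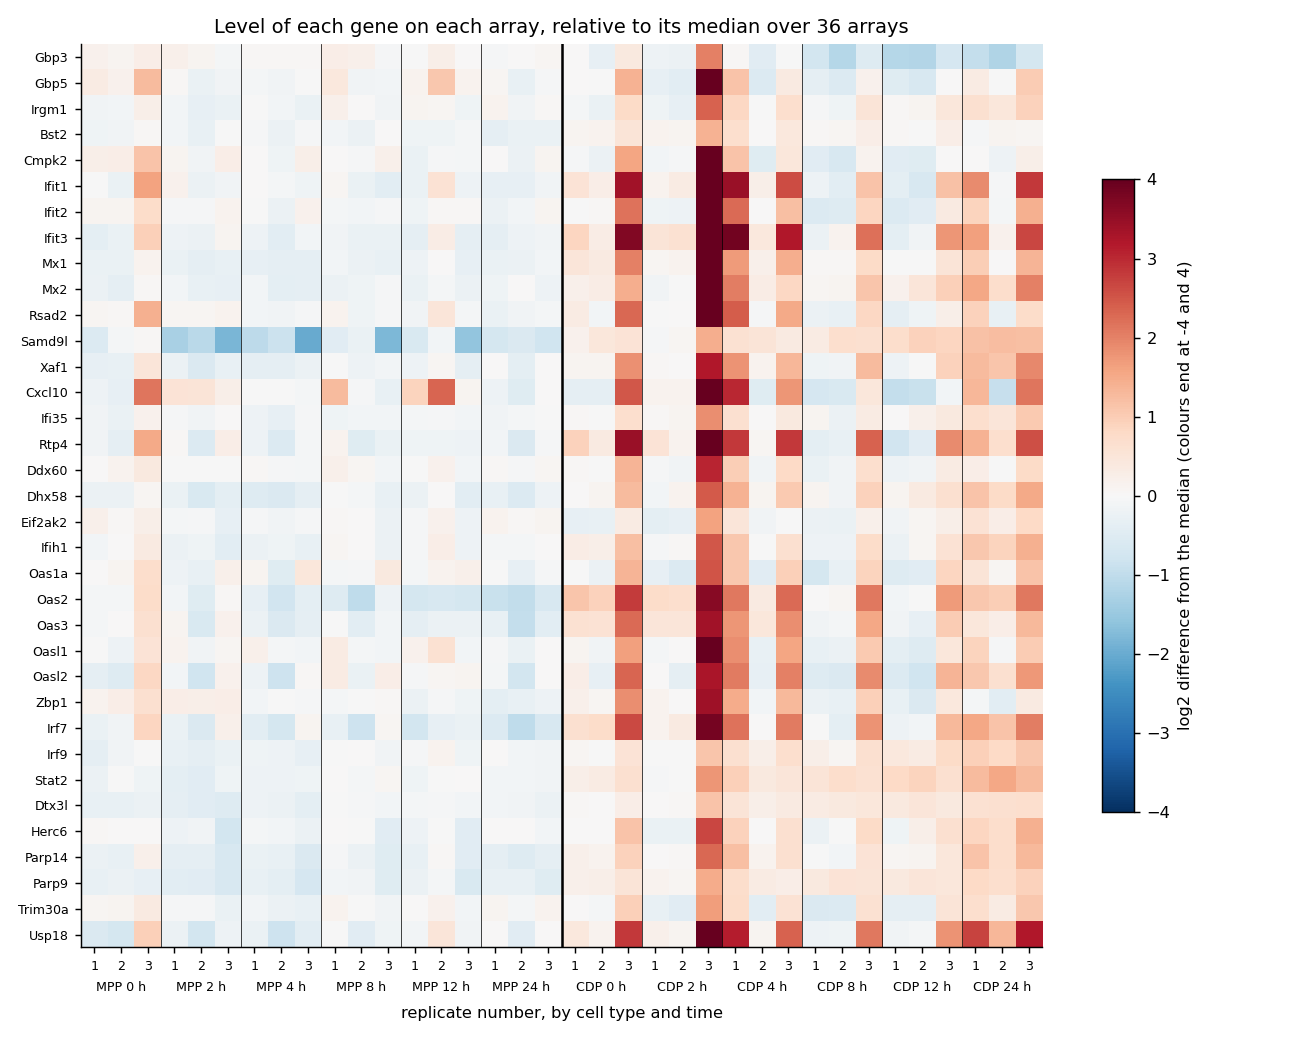
Each row is 1 of the 35 measured interferon-stimulated genes, grouped by role, and each column is 1 of 36 arrays, ordered by cell type, time and replicate number. Colour gives the log2 difference from the median of that gene over the 36 arrays. CDP 2 h replicate 3 is red in every row, and CDP columns of the same time differ from one another.

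The members kept company with one another across arrays and with a few genes outside the list. Over the 36 arrays, which include the 2 high arrays named above as extreme points, 20 of the 35 members had a Pearson correlation of 0.9 or more with the mean of the other 34, and 27 genes outside the list had one with the mean of the 35 genes. The highest of these were Oas1b (r = 0.986), Ube2l6 (the ISG15-conjugating enzyme, r = 0.981), H2-T24 (r = 0.971), Ddx58 (RIG-I, a sensor of viral RNA, r = 0.969) and Ifi205 (r = 0.958), followed by Trim30d, Kdr, Znfx1, Tnfsf15 and Slamf8 at 0.949 to 0.931. Over 34 arrays, without CDP 2 h replicate 3 and MPP 0 h replicate 3, 17 members and 8 other genes reached 0.9, and the leading genes were Oas1b (0.98), Ube2l6 (0.965), Ddx58 (0.953), Kdr (0.95) and Ifi205 (0.949). The following ones were H2-T24, Trim30d, Slfn5, Nr4a3 and Traf1, at 0.947 to 0.893. Gbp3 was the member least like the rest, at 0.375 over 36 arrays and -0.116 over 34. The other members under 0.8 over 36 arrays were Irf9 (0.793), Stat2 (0.705), Samd9l (0.585), Dtx3l (0.723) and Parp9 (0.747).

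Genes around the pathway differed in whether they moved with these arrays. On CDP 2 h replicate 3, 38.5% of all genes lay above both other arrays of the group. There, a list of 40 further measured interferon-stimulated genes had a median deviation of 1.322 from the other 2 arrays, and 39 of them lay above both. Of 24 NF-kB and inflammatory genes, all 24 lay above both, with a median deviation of 1.716 and the largest at Ptgs2 (2.964). Among 17 genes of nucleic acid sensing and interferon induction the median was 0.446, led by Ddx58 at 2.992. Socs1, an inhibitor of interferon signalling, was 1.263 above the other 2 arrays, while the median of the 14 receptor and signal transducer genes was 0.127. The 12 measured interferon genes themselves deviated by between -0.06 and 0.189. The 6 TGF-β feedback genes had a median of -0.06, so this array did not stand apart in them. On untreated MPP replicate 3, the median was 0.738 for the NF-kB and inflammatory genes. Of these, 22 of 24 were above both other arrays, as were 37.5% of all genes. The median was 0.032 for the 40 further interferon-stimulated genes and 0.017 for the interferon genes.

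Markers of other cells were set beside these arrays for the whole of each list. The 7 neutrophil markers averaged 10.61, 11.40 and 11.86 on the 3 untreated MPP arrays. On replicate 3, 6 of the 7 were above both other arrays, as were 37.5% of all genes. Replicate 3 had the highest neutrophil marker mean of MPP at every time (11.85 to 11.95), while the mean of the 35 genes on replicate 3 of MPP lay between 8.56 and 8.65 at the later times. On CDP arrays that mean was 7.32 to 7.72. The 8 macrophage and monocyte markers averaged 9.76, 9.59 and 10.22 on untreated CDP arrays and 9.63, 9.45 and 10.03 at 2 h, and replicate 3 was highest in them at every time in CDP, also at 4 h (9.48, 9.29 and 9.85), where the 35 genes were highest on replicate 1. Fcgr1, the high-affinity receptor for IgG and itself known to respond to interferon, led these markers on CDP 2 h replicate 3, at 1.681 above the other 2 arrays. Against 0 h it was called lower in CDP at 12 and 24 h (-1.08 and -1.91). Plasmacytoid dendritic cell markers, without Bst2, which is a member, had a median deviation of -0.056 on CDP 2 h replicate 3, T and NK cell markers 0.01 and B cell markers 0.076. The median deviation of the members on that array, 2.954, was above that of every marker list, and the part of other cells in the levels was not tested.

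**Figure D3:**
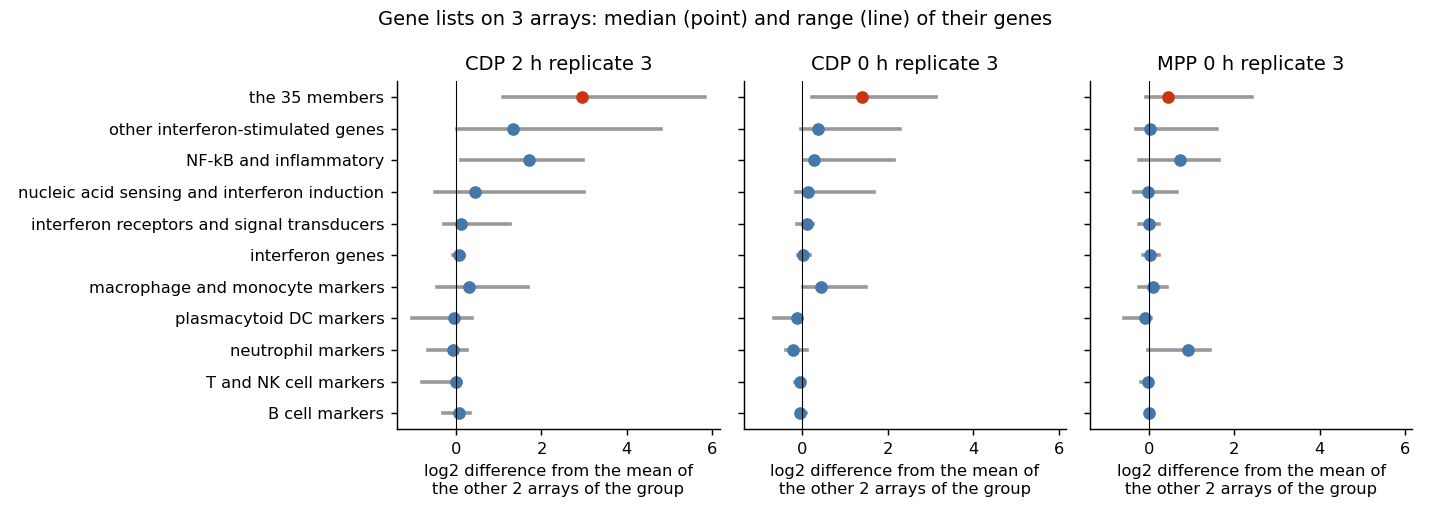
Log2 difference of each gene from the mean of the other 2 arrays of its group, summarised by list as the median (point) and the lowest to highest gene (line), on CDP 2 h replicate 3, CDP 0 h replicate 3 and MPP 0 h replicate 3. The 35 members (top row) have medians of 2.954, 1.388 and 0.452. The interferon genes, several of which read low on the intensity scale, lie near 0 on all 3 arrays.

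The question of whether the genes changed with TGF-β1 was put to each gene with limma, each time against 0 h in the same cell type, and arrays of the same number were treated as a block. The call required an adjusted p (Benjamini-Hochberg, over all 19938 genes) under 0.01 together with an absolute log2 change of at least 1. By this rule 1 member passed, Oas2 in MPP at 24 h. In MPP no member was called at 2, 4, 8 or 12 h, where 0.271%, 0.416%, 0.657% and 0.737% of all genes were called, and 1 was called at 24 h, where 1.2% were. At an unadjusted p under 0.05, 16, 17, 10, 9 and 12 members passed at 2, 4, 8, 12 and 24 h in MPP, where 18.7%, 20.6%, 25.4%, 23.7% and 25.1% of all genes did. In CDP no member was called at any time, where 0.326%, 0.702%, 1.27%, 1.86% and 3.14% of all genes were called at 2, 4, 8, 12 and 24 h. There 0, 1, 2, 4 and 5 members passed an unadjusted p under 0.05, against 13.3%, 18%, 26.9%, 26.7% and 34.8% of all genes. For comparison, the 6 TGF-β feedback genes, which include Smad7, Skil and Pmepa1, had 5 called higher at every time in MPP and 4 to 6 in CDP.

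Over all 5 contrasts at once (moderated F-test, adjusted p under 0.01 and a largest change of at least 1), 1 member was called in each cell type. In MPP this was Oas2, with 1.33% of all genes called, and in CDP it was Gbp3, at an adjusted p of 0.00614 by limma, with 3.43% of all genes called. Both calls depended on the arrays used: that of Oas2 was lost without MPP 0 h replicate 3 and without any of the 3 replicate numbers, and that of Gbp3 was lost without replicate 1 or 2 and with array medians set equal.

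Oas2, which makes an oligoadenylate messenger that activates RNase L, had the largest fitted fall of the members in MPP at 24 h. Its levels were 8.64, 8.66 and 9.47 at 0 h, 8.63, 8.25 and 8.78 at 2 h and 8.39, 7.97 and 8.32 at 4 h. At 8 h they were 8.20, 7.72 and 8.51, at 12 h 8.02, 8.10 and 8.02, and at 24 h 7.83, 7.73 and 8.08. From 4 h on, no MPP array reached any of the untreated ones. The fall at 24 h was -1.05 ± 0.15 (SE; limma adjusted p = 8.6e-05), and without MPP 0 h replicate 3 it was -0.86 ± 0.13 (adjusted p = 0.000306), which is below the required size of 1. In CDP, Oas2 read 9.84, 9.64 and 11.51 at 0 h and 8.62, 8.71 and 10.43 at 12 h, with changes of -1.22, -0.92 and -1.08 within the replicates, and at 8 h the changes were -1.10, -0.84 and -0.67. The fitted change of -1.07 at 12 h was not called. At 24 h the CDP values were 9.81, 9.70 and 10.84.

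A looser rule, an adjusted p under 0.05 with no size required, was also applied in MPP. It took in 4 members at 2 h (6.29% of all genes), 7 at 4 h (9.13%), 5 at 8 h (14.9%), 7 at 12 h (13.4%) and 7 at 24 h (14.8%). All were lower except Dtx3l, higher at 8 and 12 h. At 8 h the share of the members was near that of all genes. Oas2, Zbp1, Ifit2 and Cmpk2 met the looser rule at each of 4, 8, 12 and 24 h. Zbp1, a sensor of Z-form nucleic acid, read 8.83, 8.93 and 9.33 at 0 h and 8.29, 8.39 and 8.48 at 24 h, with no overlap between the groups, and its change was -0.64 ± 0.08 (adjusted p = 2.5e-05 by limma). Irf7, the transcription factor that amplifies interferon production, read 7.98, 8.10 and 9.09 at 0 h and 7.68, 7.22 and 7.58 at 24 h, a change of -0.90 ± 0.18 (adjusted p = 0.00191 by limma). Without MPP 0 h replicate 3, the looser rule took in 0 members at 2 h (4.13% of all genes), 2 at 4 h (6.62%), 4 at 8 h (12%), 7 at 12 h (12.1%) and 7 at 24 h (13.5%). Of these, Oas2 and Zbp1 were lower from 4 to 24 h and Dtx3l was higher from 8 to 24 h. Cmpk2 was lower at 12 and 24 h, and Irf7, Oas3 and Ifit2 were lower at 24 h. Irf9 was higher at 8 and 12 h, and Cxcl10 and Usp18 were higher at 12 h. Without that array, the share of the members at 2, 4 and 8 h was below that of all genes.

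Samd9l, an interferon-induced antiviral protein, had a course of its own in MPP. It read 9.64, 10.12 and 10.24 at 0 h, 8.90, 9.12 and 8.36 at 2 h and 9.15, 9.33 and 8.19 at 4 h. All 3 arrays were lower at 2 and 4 h than any untreated array. The change was -1.20 ± 0.27 at 2 h (adjusted p = 0.0136 by limma) and -1.11 ± 0.27 at 4 h (adjusted p = 0.0169), which missed the call. Replicates 1 and 2 returned to 9.73 and 9.93 at 8 h, while replicate 3 stayed at 8.38 at 8 h and 8.62 at 12 h, and at 24 h the arrays read 9.48, 9.60 and 9.40.

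**Figure D4:**
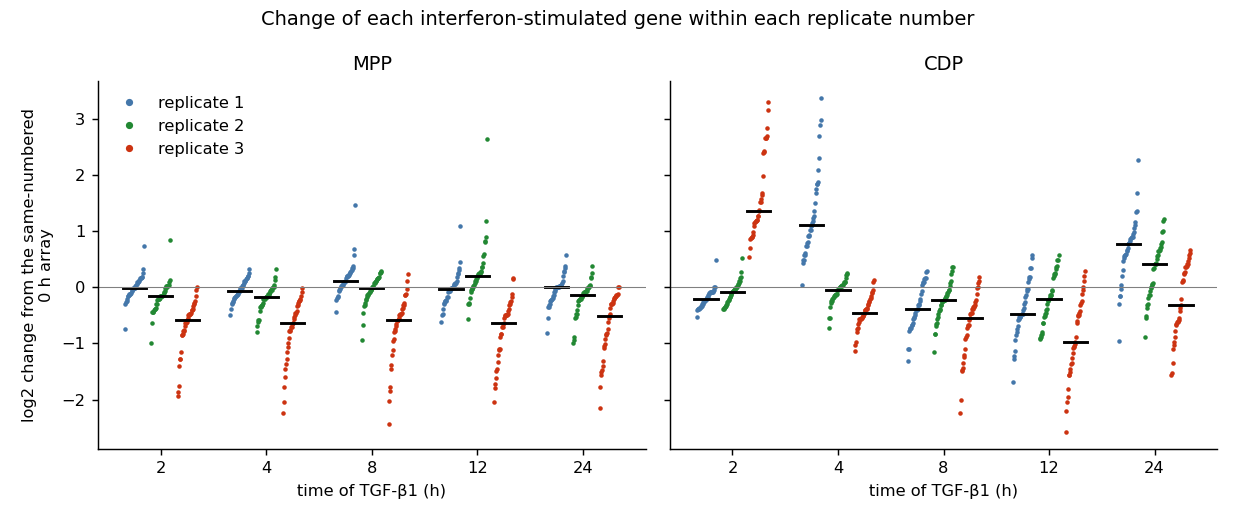
Log2 change of each of the 35 genes from the untreated array with the same replicate number (y axis) at each time (x axis), in MPP (left) and CDP (right). Each point is 1 gene, colours give the replicate number and black bars give medians. In MPP the medians of replicate 3 lie lowest at every time, between -0.64 and -0.51, and in CDP the medians of 1.36 (replicate 3, 2 h) and 1.11 (replicate 1, 4 h) stand apart.

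The median change of the 35 genes in MPP was -0.29, -0.31, -0.14, -0.12 and -0.21 at 2, 4, 8, 12 and 24 h, against medians over all genes between -0.01 and 0.02. Within replicate 3 the medians were -0.58, -0.64, -0.59, -0.64 and -0.51, and within replicates 1 and 2 they lay between -0.18 and 0.20. Without MPP 0 h replicate 3 the medians were -0.07, -0.08, 0.04, 0.03 and -0.03. At 2, 4, 8, 12 and 24 h, 18, 21, 8, 9 and 18 of the 35 members were lower in all 3 replicates, where 13.4%, 17.9%, 20.1%, 22.3% and 23.2% of all genes were. The 18 at 24 h included Oas2, Oas3, Irf7, Zbp1, Ifit2, Cmpk2 and Bst2.

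In CDP the median change had no steady direction. It was 0.39, 0.21, -0.46, -0.48 and 0.27 at 2, 4, 8, 12 and 24 h. At 2 h it was -0.34 without replicate 3 of that time, in a fit that keeps the high untreated replicate 3. With replicate 3 left out at all times it was -0.11 at 2 h. Within replicates 1, 2 and 3 the medians at 2 h were -0.21, -0.09 and 1.36, and at 4 h they were 1.11, -0.04 and -0.45. At 8 h they were all below 0 (-0.39, -0.23 and -0.54), as at 12 h (-0.47, -0.20 and -0.97), and 26 and 24 members were lower in all 3 replicates at 8 and 12 h, where 27.2% and 27.4% of all genes were. At 24 h they were 0.77, 0.41 and -0.32, with 16 members higher in all 3 replicates (23.7% of all genes) and 4 lower (27.4%). The comparisons share the untreated arrays, so they are not independent of one another.

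Of the members that moved one way on every replicate in CDP at 24 h, 5 met the looser rule there. They were Stat2, Irf9, Samd9l and Dtx3l, which were higher, and Gbp3, which was lower. Stat2 read 10.57, 10.68 and 10.99 in untreated CDP, 10.87, 11.04 and 10.97 at 8 h, 11.15, 11.25 and 10.99 at 12 h and 11.62, 11.89 and 11.61 at 24 h. All 24 h arrays were above all untreated ones. The change at 24 h was 0.96 ± 0.33 (adjusted p = 0.0441 by limma) and 0.96 ± 0.14 (adjusted p = 9e-05) without CDP 2 h replicate 3, on which Stat2 was 12.13. That array takes no part in the comparison of 24 h with 0 h, and the fit takes its error from all 18 arrays.

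Irf9 read 10.42, 10.35 and 10.90 at 0 h and 11.30, 11.15 and 11.43 at 24 h, a change of 0.74 ± 0.14 (limma adjusted p = 0.00109). Samd9l read 10.37, 10.63 and 10.74 at 0 h and 11.36, 11.41 and 11.40 at 24 h, a change of 0.81 ± 0.24 (limma adjusted p = 0.0217). Its 24 h arrays lay within 0.05 of each other, on arrays where Ifit3 read 8.99, 7.53 and 10.04. Dtx3l read 11.22, 11.19 and 11.43 at 0 h and 11.79, 11.83 and 11.84 at 24 h, a change of 0.54 ± 0.19 (limma adjusted p = 0.0496). Stat2, Irf9, Samd9l and Dtx3l met the looser rule and missed the required change of 1, Stat2 by the least. Stat2, Samd9l and Dtx3l also missed the required adjusted p under 0.01 by limma, which Irf9 alone met.

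Gbp3 went the other way. It read 8.97, 8.64 and 9.35 in untreated CDP, 8.76, 8.72 and 10.99 at 2 h and 9.01, 8.51 and 8.95 at 4 h. At 8 h it read 8.24, 7.81 and 8.43, at 12 h 7.83, 7.80 and 8.28, and at 24 h 8.02, 7.76 and 8.25. From 8 h on, every array was below every untreated array. The change at 12 h was -1.02 ± 0.32 (limma adjusted p = 0.0386), not called, and -1.02 ± 0.09 (adjusted p = 2e-06) without CDP 2 h replicate 3, where it was called, with 1.05% of all genes called lower. In MPP, Gbp3 lay between 8.89 and 9.23 on all 18 arrays. Of the 5 promoters shown its matches lie nearest the start, while its other window held no match. Gbp3 was high on CDP 2 h replicate 3 like the rest.

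**Figure D5:**
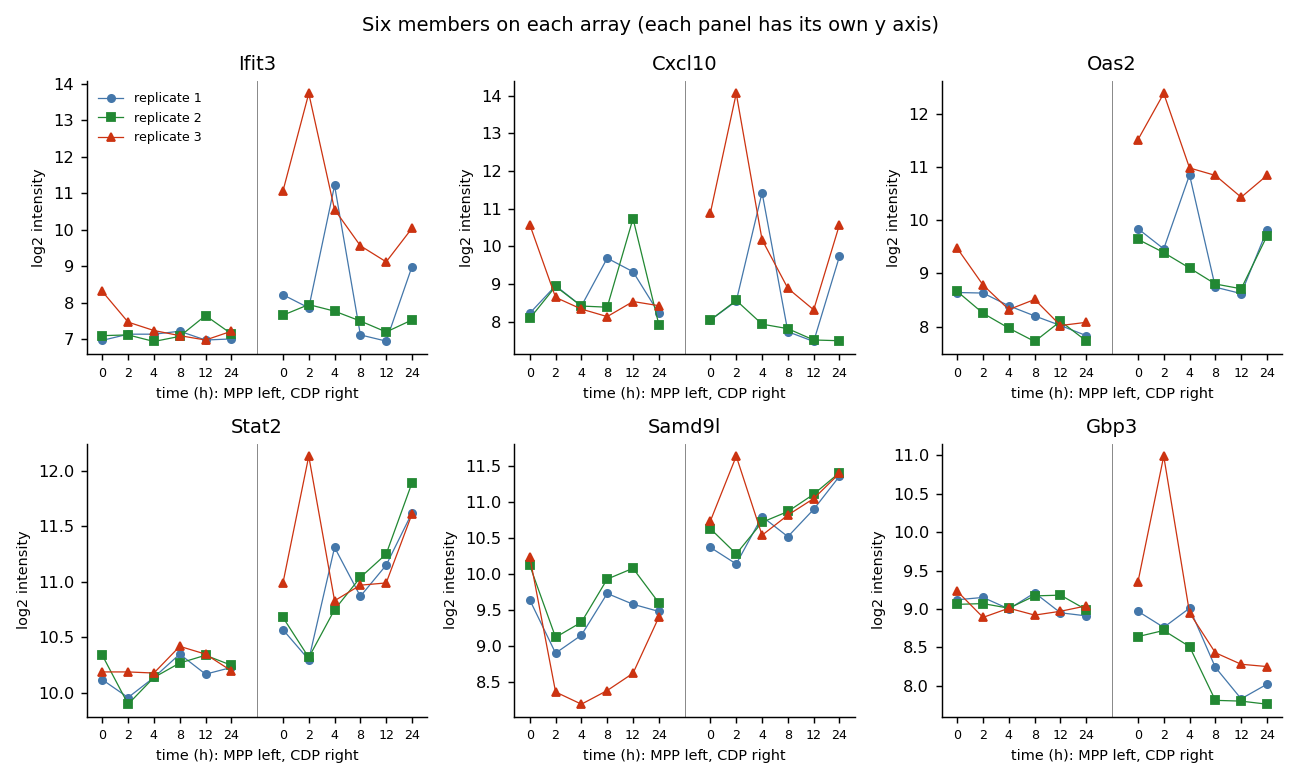
Log2 intensity of 6 members on each array, with time in categories along the x axis (MPP left, CDP right of the grey line) and the replicate number by colour and symbol. Each panel has its own y axis. Ifit3, Cxcl10 and Oas2 overlap between 0 h and 24 h in CDP, while Stat2 and Samd9l end higher on all 3 CDP arrays and Gbp3 lower, and Oas2 is lower at 8 and 12 h within each replicate.

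By the looser rule, 0 members passed at 2, 4 and 8 h in CDP (3.88%, 8.35% and 15.9% of all genes), 1 passed at 12 h (Gbp3; 17.3%) and 5 at 24 h (27.2%). Without CDP 2 h replicate 3 these counts were 2 at 4 h (Dtx3l and Irf9, both higher; 10.5% of all genes), 2 at 8 h (Dtx3l higher, Gbp3 lower; 18.6%), 7 at 12 h (19.8%) and 13 at 24 h (29.3%). The 7 at 12 h were Dtx3l, Irf9 and Samd9l, higher, and Gbp3, Oas2, Oas3 and Zbp1, lower. The 13 at 24 h were 11 higher (Dhx58, Dtx3l, Eif2ak2, Herc6, Ifi35, Irf9, Irgm1, Parp14, Parp9, Samd9l and Stat2) and 2 lower (Gbp3 and Zbp1). Without any array of replicate 3, Stat2 was called higher at 24 h, at 1.13 ± 0.16 (limma adjusted p = 0.000782), with 1.28% of all genes called higher.

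The other members are given by role, with their ranges over the 18 CDP arrays. For every member the highest CDP level was on CDP 2 h replicate 3, so the upper end of each CDP range rests on that array. Among transcription factors, Irf7 had a CDP range of 7.84 to 12.06 with a median of 9.19, against 10.34 to 11.45 for Irf9 and 10.30 to 12.13 for Stat2. Irf7 read 8.89, 8.98 and 10.89 at 0 h and 9.79, 9.39 and 10.28 at 24 h, with the groups overlapping. The fitted change of 0.24 ± 0.51 was smaller than its error.

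Among RNA sensors, Ifih1 (MDA5) ranged from 9.46 to 12.15 in CDP, Dhx58 (LGP2) from 9.62 to 12.21 and Ddx60 from 6.10 to 9.40. Their MPP ranges were narrower, at 0.769, 0.678 and 0.478 log2 units from lowest to highest. Eif2ak2 (PKR, the kinase that halts translation on double-stranded RNA) ranged from 9.36 to 11.38. The OAS family ranged by 3.21 (Oas1a), 3.76 (Oas2), 3.68 (Oas3), 4.58 (Oasl1) and 4.09 (Oasl2) log2 units in CDP. A further probe set shared by Oas1a and Oas1g was not used, and cross-hybridisation among these close relatives was not tested.

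Antiviral effectors had both wide and narrow ranges. Ifit1, Ifit2 and Ifit3 spanned 6.40, 5.43 and 6.78 log2 units in CDP, Rsad2 5.50, Mx2 4.91 and Mx1 4.70 (both dynamin-like GTPases), and Cmpk2, a mitochondrial nucleotide kinase, 4.66. On CDP 2 h replicate 3, Ifit3, Mx1 and Mx2 read 13.73, 11.96 and 10.77. Their next highest CDP levels were 11.21 (4 h replicate 1), 9.30 (0 h replicate 3) and 8.07 (4 h replicate 1). Xaf1 spanned 3.39. Bst2 (tetherin, which holds budding virions) spanned 1.43, from 9.25 to 10.68, and Samd9l lay between 10.13 and 11.64. Ifit3 showed the contrast between cell types: its 18 MPP levels lay between 6.94 and 8.31 with a median of 7.13, and its CDP levels between 6.95 and 13.73 with a median of 8.09.

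In the ubiquitin and ADP-ribosylation group, Usp18, which removes ISG15 and dampens the receptor, ranged from 8.44 to 13.44 in CDP and read 9.07, 8.77 and 11.46 at 0 h and 11.34, 9.96 and 11.83 at 24 h. It was higher at 24 h on each replicate, by 2.27, 1.19 and 0.37, as were Herc6 (0.86, 0.70 and 0.28), Parp14 (0.95, 0.55 and 0.38) and Parp9 (0.57, 0.43 and 0.41). The fitted change of 1.28 ± 0.69 for Usp18 was not called (limma adjusted p = 0.219). Herc6 spanned 2.96, Parp14 2.41, Trim30a 2.23, Parp9 1.41 and Dtx3l 1.15 log2 units in CDP. Of the remaining GTPases, Gbp5 spanned 4.70 and Irgm1 2.68 units. Rtp4 spanned 5.41 and Ifi35 2.09.

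Cxcl10 was the member with the widest MPP range, 7.93 to 10.74. Its highest MPP level was on replicate 2 at 12 h, where the group read 9.33, 10.74 and 8.54, and next came untreated replicate 3 at 10.58. On MPP 12 h replicate 2 the NF-kB and inflammatory list had a median deviation of 0.63, with 0.234 for the 35 members. In CDP it read 8.05, 8.05 and 10.90 at 0 h and 9.74, 7.50 and 10.58 at 24 h. Its fitted change of 0.27 ± 0.92 at 24 h was far below its error.

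The question of whether untreated CDP and MPP differed was put over all 36 arrays. The median difference of the 35 genes, CDP minus MPP, was 0.44, against 0.03 for all genes, with 31 members above 0 and 4 below. Without CDP 0 h replicate 3 it was 0.16. No member was called by limma, where 2.81% of all genes were, and 4 had an unadjusted p under 0.05, where 30.7% of all genes did. By the looser rule 1 passed, Parp9 (20.3% of all genes), at 9.74, 9.82 and 9.71 in MPP and 10.26, 10.29 and 10.55 in CDP, without overlap. Its difference was 0.61 ± 0.21 (limma adjusted p = 0.0413). Without CDP 2 h replicate 3 there were 5 (21.6%), namely Bst2, Dtx3l, Mx1, Parp9 and Stat2, all higher in CDP. Without MPP 0 h replicate 3 the median difference was 0.64 and 0 members passed. Ifit3, at 6.97, 7.10 and 8.31 in MPP and 8.22, 7.66 and 11.06 in CDP, overlapped between the cell types.

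The difference between the 2 responses, the change in CDP minus the change in MPP, was tested as an interaction. No member was called at 2, 4, 8, 12 or 24 h, where 0.0301%, 0.14%, 0.411%, 0.727% and 1.85% of all genes were, and 2, 2, 1, 2 and 8 members had an unadjusted p under 0.05 by limma, where 9.08%, 9.31%, 14.6%, 14.3% and 25% of all genes did. The median over the members was 0.69, 0.51, -0.24, -0.32 and 0.61. The value at 2 h rested on CDP 2 h replicate 3, and without it the median was -0.04. By the looser rule 0 members passed at 2, 4, 8 and 12 h (0.481%, 1.32%, 3.49% and 5.35% of all genes) and 2 at 24 h (15%), Samd9l at 1.31 ± 0.40 (limma adjusted p = 0.0233) and Irf9 at 0.64 ± 0.18 (limma adjusted p = 0.0127).

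The call for Samd9l changed with the arrays. Without CDP 2 h replicate 3 it was called at the same 1.31 with an error of 0.32 (limma adjusted p = 0.00383), where 0.732% of all genes were called higher, and the looser rule took in 10 members (16.7% of all genes). Without replicate 3, Samd9l and Stat2 were called, where 0.637% of all genes were called higher, at 1.22 ± 0.14 and 1.11 ± 0.19. Without MPP 0 h replicate 3, 0 members passed the looser rule and the median was 0.37.

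Genes of the wider pathway, from lists chosen alongside the members, were counted in the same fits. In CDP at 24 h, 2 of 14 receptor and signal transducer genes, 3 of 17 sensing and induction genes and 3 of 40 further interferon-stimulated genes were called, where 3.14% of all genes were. At 12 h these counts were 1, 1 and 3, where 1.86% of all genes were called, and in MPP at 24 h they were 0, 0 and 1, where 1.2% were. Of the 14 measured receptor and signal transducer genes, Ifnlr1, the specific chain of the type III interferon receptor, was called higher in CDP at 4, 8, 12 and 24 h, by 1.47, 2.49, 3.40 and 3.84 with an error of 0.14 at each time. Jak2 was called higher at 24 h (1.30 ± 0.18), and no gene of that list was called in MPP or called lower in CDP. None of the 12 measured interferon genes, several of which read low on the intensity scale, was called in any of the 16 comparisons. Of 17 sensing and induction genes, Ikbke was called lower in CDP at 12 and 24 h and Tlr7 at 24 h (-2.16 ± 0.29), and Tlr3 was called higher at 24 h (1.05 ± 0.25). Of the 40 further interferon-stimulated genes, Lgals9 (galectin-9) was called higher in CDP from 4 to 24 h, by 1.09 to 1.41. Ms4a4c was called lower in CDP at 8, 12 and 24 h and in MPP at 24 h, and Ms4a6d was called lower in CDP at 12 and 24 h. In untreated cells, Ifi203, Ifi30 and Tlr9 were called higher in CDP and Ikbke lower. Of the 24 NF-kB and inflammatory genes, Cd40, Il12b and Nfkbie were called higher in CDP at 24 h and none lower. In MPP at 24 h, Il6 was called higher and Ccl3 and Ptgs2 lower.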

How the data were processed

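The authors deposited log2 intensities of 35556 probe sets on 36 Affymetrix arrays, made, per the labels, with Affymetrix Power Tools and RMA, in versions not given in the sources used here. RMA corrects background, sets array distributions equal by quantiles and summarises probes on a log2 scale, which can narrow differences between arrays. Probe sets were named through the platform annotation: 21789 had 1 symbol, 1621 several and 12146 none, which left 19938 genes, each by its probe set of highest mean over the 36 arrays. No probe-level signal was analysed, and only 3 arrays per group limit precision.

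Within each cell type (18 arrays), every later time was set against 0 h in limma 3.58.1 under R 4.3.3, with the replicate number as a block. Untreated CDP and MPP were compared over 36 arrays without a block, and the difference of responses with replicate within cell type as a block. All tests were two-sided and adjusted over 19938 genes. Same-numbered arrays deviated together (lowest residual correlation 0.189 in MPP and 0.212 in CDP), so the numbers were taken as pairs. Nothing in the sources says that arrays of a group came from separate animals, so p-values measure the spread between these samples, called biological replicates by the study.

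The members, the other gene lists and the call rules were chosen with earlier results of these data known. Full values are given for members called in a comparison and for those with the largest and smallest deviations on the 2 named arrays. Outside the members, called genes are named for the lists of the interferon pathway. Called genes of the other lists, among them cell type markers, are not all named. Stat2, Irf9, Samd9l, Dtx3l, Zbp1, Irf7 and Usp18 were described after their values were seen. The fit was tested on simulated data. The alternatives tried were arrays left out singly and by replicate number, the block, averaged probe sets, a filter on dim genes, array medians set equal, array weights and a looser call.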

Additional observations from a re-analysis of the deposited data

How the results depend on the processing

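Calls among the 35 genes depended on single arrays. Leaving out 1 array or replicate number at a time, the number of members called ranged from 0 to 1 in MPP at 2, 4 and 12 h, from 0 (without MPP 0 h replicate 3) to 3 in MPP at 24 h, from 0 to 1 in CDP at 12 and 24 h, from 0 to 2 for the response difference at 24 h, and from 0 to 1 over each time course. The median change ranged from -0.598 to -0.286 in CDP at 8 h, and the median response difference from -0.528 to -0.118 at 12 h and from 0.365 to 0.806 at 24 h. Without both CDP 2 h replicate 3 and MPP 0 h replicate 3, no member was called in MPP at 24 h or over the MPP time course, 1 was called in CDP at 12 h, and the median response difference was -0.449 at 12 h and 0.365 at 24 h.

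With array weights, 0 members were called in MPP at 24 h and over the MPP time course, 2 in CDP at 12 h (Gbp3 and Oas2) and 1 for the response difference at 24 h (Samd9l), with median response differences of -0.482 at 12 h and 0.458 at 24 h. With array medians set equal, 0 were called over the CDP time course. With an adjusted p under 0.05 and no fold threshold, 4, 7, 5, 7 and 7 members were called in MPP at 2, 4, 8, 12 and 24 h, 1 and 5 in CDP at 12 and 24 h, 1 in untreated cells and 2 for the response difference at 24 h. Without the replicate block, 0 members were called over either time course, and in untreated cells 0 were called with the replicate block, as without it. Leaving out an array together with the looser rule was chosen after seeing the data. Another summary than RMA was not run, since no probe-level file was used here. The causes of these differences were not tested.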
